A study of Mus musculus with 31 samples.

Results

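Fat cells make up most of the mammary fat pad of a virgin mouse, and the pad shrinks as the secretory epithelium fills the gland for lactation. The data described here are the RNA levels of 10 genes that mark white fat cells, followed as a trace of this fat pad in mammary glands on lactation day 10. The genes are *Adipoq*, *Lep*, *Fabp4*, *Plin1*, *Plin4*, *Lpl*, *Cidec*, *Pparg*, *Retn* and *Cfd*, a given list that was matched by gene symbol. All 10 were found among the 55379 genes counted, and all 10 were among the 14362 genes with enough counts to be tested. The study asked whether extra folic acid (FA) changes what fluoxetine, a selective serotonin reuptake inhibitor, does to the lactating gland. C57BL/6J dams ate a breeder diet, which holds FA at 4 mg/kg, or a diet with 24 mg/kg that began 2 weeks before mating, and from embryonic day 13 to lactation day 10 they received saline or 20 mg/kg fluoxetine each day by injection. By the labels, each of the groups breeder diet + saline, FA diet + saline and FA diet + fluoxetine had 8 dams, and the group breeder diet + fluoxetine had 7. The methods of the paper have the fluoxetine groups the other way round, with 8 on the breeder diet and 7 on the FA diet. One library of polyadenylated RNA was sequenced from each gland at the same stage, and no group was virgin or dry. In such whole-gland RNA, fewer fat cells and less RNA per fat cell cannot be told apart.

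White fat cells store triacylglycerol in 1 large droplet. Lipoprotein lipase, the product of *Lpl*, frees fatty acids from blood lipoproteins, Fabp4 carries them inside the cell, the perilipins (*Plin1*, *Plin4*) and Cidec coat and enlarge the droplet, and the nuclear receptor encoded by *Pparg* switches on most of these genes. Fat cells also secrete hormones and other proteins: adiponectin (*Adipoq*), leptin (*Lep*), resistin (*Retn*) and adipsin (*Cfd*), a protease of the complement system. Some of these genes are not restricted to fat cells, and lipoprotein lipase in particular is abundant in the lactating gland, where it supplies fatty acids for milk fat.

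Depth did not limit these genes. Total counts per library ranged from 15412542 to 36000439, every gene of the list had counts in all 31 libraries, and the lowest count was 34, for *Pparg*. Levels are given in CPM, the counts of a gene per 1e+06 counts of its library, after TMM scaling, which adjusts each library for genes that take an unusual share of the reads. One library stood apart before any group was compared. In dam 3 of FA diet + fluoxetine (FF3 in the labels) the 20 most abundant genes held 39.3% of the counts, against 60.5% to 81.0% in the other 30 libraries, and its TMM factor was 3.04, against 0.716 to 1.57. Results are therefore given with and without it.

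The genes lie on 7 chromosomes of GRCm39, and all are annotated as protein-coding. *Lep* (chr6:29060216-29073877), *Cidec* (chr6:113400691-113412721) and *Pparg* (chr6:115337675-115468268) share chromosome 6, and *Retn* (chr8:3705324-3710689) and *Lpl* (chr8:69284603-69360100) share chromosome 8. The others are *Adipoq* (chr16:22964106-22976810), *Fabp4* (chr3:10268785-10273737), *Plin1* (chr7:79369966-79382718), *Plin4* (chr17:56406617-56416931) and *Cfd* (chr10:79726668-79728496). Of the exon bases of *Plin4*, 3124 of 7987 are also covered by *Hdgfl2* on the opposite strand, and the strand setting of the counting is not given in the sources used here. Whether reads from the shared bases were counted for 1 of the 2 genes or left out is therefore not known here. The log2 CPM of *Plin4* and *Hdgfl2* correlated with r = 0.38 over 30 libraries (0.51 with FF3), which does not tell these cases apart.

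Levels were compared between genes only after division by the length of their merged exons, as CPM per kilobase. *Cfd* had the highest median with 151 CPM per kilobase and *Lpl* the next with 143, and *Cfd* exceeded *Lpl* in 17 of 31 libraries, so this pair had no stable order. *Fabp4* followed with 36.7 and was below *Lpl* in 30 of 31 libraries, the exception being FF3. The secreted *Adipoq* (9.68) and *Retn* (7.85) and the droplet protein gene *Cidec* (5.72) formed a middle range, in which *Adipoq* exceeded *Retn* in 23 of 31 libraries and *Retn* exceeded *Cidec* in 23. *Lep* (2.19), *Plin4* (1.34), *Plin1* (0.999) and *Pparg* (0.517) had the lowest medians per kilobase, and neighbours in this range kept their order in 23 to 28 of 31 libraries. Merged exons can exceed the length of the transcript in use, so these are levels on a nominal length. That length was 964 bases for *Cfd*, 12225 for *Lpl* and 4953 for *Fabp4*, where it spans the whole gene. The order of the genes therefore depends on the annotation and may differ on the transcripts in use.

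Since many of these genes covaried between dams, the RefSeq promoter table of mouse (build GRCm38.p6) was searched. It holds 11 start sites for 8 of the 10 genes, and *Fabp4* and *Lpl* have no entry. The 250 bases before each start were matched exactly to GRCm39, where each had 1 match. Shown are the windows of *Adipoq*, *Cidec* and *Cfd*, which covaried strongly between dams, and of *Lep*, which did not follow them. Each is written on the strand of its gene, with motif matches in capitals.
Adipoq, chr16:22965036-22965285, plus strand: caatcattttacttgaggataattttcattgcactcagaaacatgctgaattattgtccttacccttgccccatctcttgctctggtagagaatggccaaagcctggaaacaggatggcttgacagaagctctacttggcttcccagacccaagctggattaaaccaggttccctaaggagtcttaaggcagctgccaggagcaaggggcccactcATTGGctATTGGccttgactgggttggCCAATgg
Cidec, chr6:113412722-113412971, minus strand: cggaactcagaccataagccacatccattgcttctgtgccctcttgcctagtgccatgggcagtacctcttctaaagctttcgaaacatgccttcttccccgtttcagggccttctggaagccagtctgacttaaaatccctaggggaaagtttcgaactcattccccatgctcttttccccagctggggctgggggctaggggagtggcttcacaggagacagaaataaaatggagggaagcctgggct
Cfd, chr10:79726437-79726686, plus strand: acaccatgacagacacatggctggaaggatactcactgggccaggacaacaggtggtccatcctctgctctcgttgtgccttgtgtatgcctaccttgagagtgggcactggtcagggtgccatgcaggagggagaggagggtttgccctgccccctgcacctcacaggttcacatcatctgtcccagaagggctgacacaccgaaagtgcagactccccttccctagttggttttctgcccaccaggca
Lep, chr6:29059970-29060219, plus strand: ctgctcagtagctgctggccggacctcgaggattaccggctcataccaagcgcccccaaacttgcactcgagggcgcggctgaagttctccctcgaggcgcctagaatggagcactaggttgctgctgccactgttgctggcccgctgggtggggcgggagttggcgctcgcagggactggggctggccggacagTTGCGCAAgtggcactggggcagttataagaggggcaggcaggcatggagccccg
The *Adipoq* window lies in an intron of a longer *Adipoq* transcript of GENCODE vM39, the *Cidec* window lies in an intron of the opposite-strand gene *Gm52871*, and the *Cfd* and *Lep* windows reach 19 and 4 bases into annotated untranslated exon sequence of their genes. The motifs were searched on both strands. The TATA box was searched as TATAAA. The CCAAT box was searched by the letters of its name. The motif bound by C/EBP proteins was searched as TTGCNNAA. The half-site of nuclear receptors was searched as AGGTCA, and the PPAR-RXR direct repeat as 2 such half-sites with 1 base between them and up to 2 mismatches. CCAAT was found 3 times in the *Adipoq* window, from 34 to 30, 27 to 23 and 7 to 3 bases before the start. The *Lep* window held 1 C/EBP match from 55 to 48 bases before its start, which reads the same on both strands. None of the 5 motifs matched in the *Cidec* and *Cfd* windows shown.

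Over all 11 windows, C/EBP letters occurred in 4, against 9.57% of 32817 promoter windows of the same length. They were in windows of *Cidec*, *Lep*, *Plin1* and *Pparg*. Most of the bases of 3 of these windows lay in annotated untranslated exon sequence of the genes. They were 249 of 250 bases for *Cidec* (a window not shown), 194 for *Plin1* and 144 for *Pparg*, against 4 for *Lep*. CCAAT occurred in 4 windows (33.8% of all windows), AGGTCA in 2, both of *Pparg* (4604 of all 32817), and TATAAA in 1, of *Pparg* (12.4% of all). The *Pparg* windows with AGGTCA or TATAAA lay in such exon sequence with all 250 bases. The direct repeat, held by 3.23% of all windows, matched in 0 of 11. Such a count describes these letters in these windows and says nothing of binding.

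Without a group difference in mind, the genes varied widely between dams. Over the 30 libraries other than FF3, the highest dam exceeded the lowest by 12.4 times for *Cfd*, 8.99 times for *Lep*, 8.07 times for *Retn*, 7.96 times for *Plin1*, 6.70 times for *Adipoq* and 6.32 times for *Cidec*. *Plin4* spanned 4.60 times, *Pparg* 2.90 times, *Fabp4* 2.62 times and *Lpl* 2.24 times. The SD of log2 CPM was 0.30 for *Lpl* and 0.82 for *Lep* and *Cfd*, against a median of 0.43 over all tested genes. *Lpl*, *Fabp4* (0.33) and *Pparg* (0.40) lay below that median and the other 7 genes above it.

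Among the secreted proteins, *Adipoq* had 9.07, 16.9 and 40.04 CPM as the lowest, median and highest value of breeder diet + saline, and 5.98, 24.3 and 31.4 CPM in breeder diet + fluoxetine. For FA diet + saline the values were 15.7, 23.9 and 29.6 CPM, and for FA diet + fluoxetine 10.3, 18.6 and 38.05 CPM, the highest of these being FF3. Dams 3 and 6 of breeder diet + saline and dam 6 of FA diet + fluoxetine were high, dams 5 and 6 of breeder diet + fluoxetine were low, and the 4 groups overlapped. *Cfd* was ordered in a similar way. Its lowest, median and highest values were 96.3, 142 and 341 CPM in breeder diet + saline, 29.3, 142 and 274 CPM in breeder diet + fluoxetine, 83.1, 179 and 209 CPM in FA diet + saline, and 63.5, 101 and 363 CPM in FA diet + fluoxetine. Dam 6 of breeder diet + fluoxetine had the lowest level of both genes, and the highest *Cfd* level was in dam 5 of FA diet + fluoxetine. The groups overlapped for *Cfd* as well.

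*Retn* had 13.1, 18.0 and 32.8 CPM in breeder diet + saline and 6.27, 27.5 and 41.9 CPM in breeder diet + fluoxetine. In the FA groups it had 10.5, 20.3 and 26.6 CPM with saline and 11.9, 19.7 and 50.6 CPM with fluoxetine. Dam 6 of FA diet + fluoxetine was highest, and the saline values lay within the range of the fluoxetine values. *Lep*, the hormone that reports fat stores to the brain, was ordered differently. It had 2.51, 7.83 and 20.2 CPM in breeder diet + saline, 4.07, 6.51 and 14.6 CPM in breeder diet + fluoxetine, 4.56, 12.002 and 22.6 CPM in FA diet + saline, and 4.76, 7.01 and 14.9 CPM in FA diet + fluoxetine. All 15 fluoxetine dams lay at or below 14.9 CPM, and 5 of 16 saline dams lay above it. Dam 6 of breeder diet + fluoxetine, the lowest dam for *Adipoq*, *Cfd* and *Retn*, was the highest of its group for *Lep*.

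**Figure D1:**
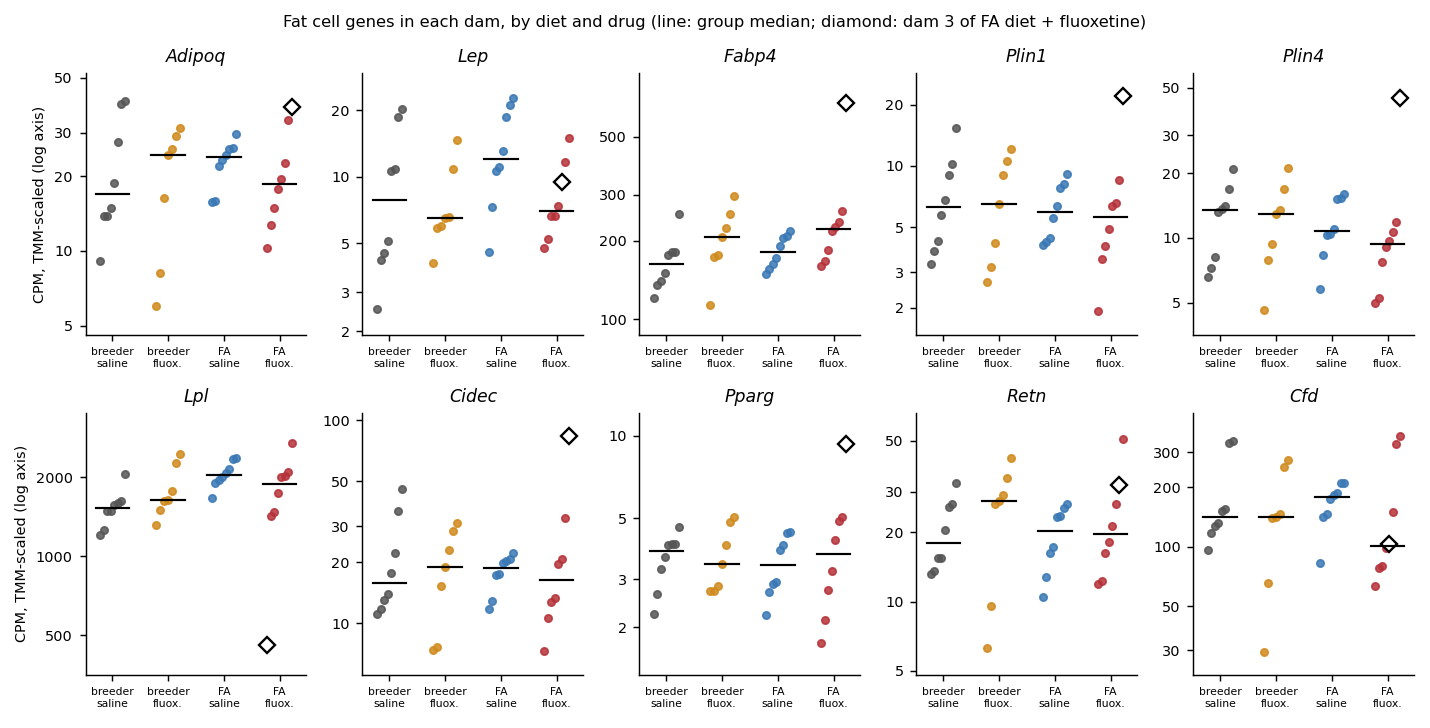
TMM-scaled CPM of the 10 fat cell genes in each dam (log axis), by diet and drug, with a line at the group median and a diamond for FF3 (dam 3 of FA diet + fluoxetine). The groups overlap for every gene, and FF3 lies above all other dams for *Fabp4*, *Plin1*, *Plin4*, *Cidec* and *Pparg* and below them for *Lpl*.

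Of the droplet genes, *Cidec* had 11.1, 15.9 and 46.04 CPM in breeder diet + saline, 7.44, 19.02 and 31.1 CPM in breeder diet + fluoxetine, 11.8, 18.6 and 22.3 CPM in FA diet + saline, and 7.29, 16.4 and 83.2 CPM in FA diet + fluoxetine. The last value is FF3, and without it the highest of the group was 33.1 CPM. *Plin1* ranged from 1.92 CPM in dam 10 of FA diet + fluoxetine to 21.95 CPM in FF3, with group medians of 6.28, 6.50, 5.96 and 5.63 CPM in the same order of groups. *Plin4* ranged from 4.61 CPM in dam 6 of breeder diet + fluoxetine to 44.8 CPM in FF3, with medians of 13.4, 12.9, 10.7 and 9.34 CPM. The ranges of the 4 groups overlapped for each of these 3 genes.

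*Fabp4* and *Lpl*, which handle fatty acids, were the most even of the list. *Fabp4* had 120.4, 163 and 253 CPM in breeder diet + saline, 113, 208 and 297 CPM in breeder diet + fluoxetine, 149, 181 and 218 CPM in FA diet + saline, and 159.8, 221 and 675 CPM in FA diet + fluoxetine. Its medians were higher with fluoxetine in both diets, while single dams overlapped. *Lpl* had 1204, 1533 and 2052 CPM in breeder diet + saline, 1318, 1640.5 and 2458 CPM in breeder diet + fluoxetine, 1668, 2045 and 2376 CPM in FA diet + saline, and 461, 1878 and 2698 CPM in FA diet + fluoxetine. FF3 held the highest value of *Fabp4* and the lowest of *Lpl*. *Pparg*, the regulator, stayed between 1.75 and 5.07 CPM in 30 libraries and had 9.30 CPM in FF3, with medians of 3.80, 3.41, 3.38 and 3.69 CPM in the order of groups above.

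Fluoxetine, FA and their interaction were tested for every gene by the quasi-likelihood method of edgeR, with p-values adjusted by Benjamini-Hochberg and an FDR of 10%. For fluoxetine, 0 of the 10 fat cell genes passed, where 0.0209% of all genes tested did. For FA and for the interaction, 0 of 10 passed, and among all genes 0.0% passed as well. Over the same 31 libraries, DESeq2 and the likelihood ratio test of edgeR also called 0 of the 10 genes in each comparison. Without FF3 the counts were 0 of 10 for each, against 0.0211% of all genes for fluoxetine and 0.0% for FA and for the interaction. At an unadjusted p of 0.05 or below, 1 of 10 genes differed for fluoxetine (9.92% of all genes), 0 for FA (5.08%) and 0 for the interaction (3.84%). Without FF3 these counts were 1 for fluoxetine (9.21% of all), 1 for FA (6.99%) and 0 for the interaction (3.48%).

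The gene with the low unadjusted p for fluoxetine was *Fabp4*. It had 175 ± 34.6 CPM (SD, n = 16) with saline and 238 ± 129.6 CPM (SD, n = 15) with fluoxetine, which gave 0.42 on the log2 scale (standard error 0.162, unadjusted p = 0.0137, adjusted p = 0.417). Without FF3 the fluoxetine mean was 207 ± 47.9 CPM (SD, n = 14) and the log2 fold change 0.23 (standard error 0.113, unadjusted p = 0.0493, adjusted p = 0.537). On total counts without a scaling factor, where all genes together shifted by a median of 0.26 toward fluoxetine, 0 of the 10 genes passed, and the lowest adjusted p of any of them in the 3 comparisons was 0.160. *Lep* had the most negative log2 fold change of the list. Its levels were 11.6 ± 6.76 CPM (SD, n = 16) with saline and 8.07 ± 3.44 CPM (SD, n = 15) with fluoxetine, or -0.50 on the log2 scale (standard error 0.271, unadjusted p = 0.0718, adjusted p = 0.541). Its value without FF3 was -0.53 (standard error 0.284, adjusted p = 0.575).

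For FA, *Lpl* had the only unadjusted p below 0.05, and only without FF3. The estimate on the log2 scale was 0.19 (standard error 0.149, adjusted p = 0.943) over all dams and 0.26 (standard error 0.0995, unadjusted p = 0.0149, adjusted p = 0.612) without FF3. Group means without FF3 were 1539 ± 259 CPM (SD, n = 8) and 1799 ± 415 CPM (SD, n = 7) on the breeder diet with saline and fluoxetine. On the FA diet they were 2060.4 ± 235 CPM (SD, n = 8) and 1926 ± 433 CPM (SD, n = 7). The difference depended on the scaling. On CPM of total counts the means were 1551.5 ± 187 CPM and 1886 ± 762 CPM on the breeder diet with saline and fluoxetine. On the FA diet they were 1802.5 ± 284 CPM and, without FF3, 1828 ± 238 CPM. The FA mean was thus higher with saline and lower with fluoxetine, where 1 breeder diet dam reached 3554.5 CPM. The remaining genes had log2 fold changes for FA from -0.08 for *Plin1* to 0.31 for *Lep* over all dams, and from -0.34 for *Plin1* to 0.28 for *Lep* without FF3.

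A missed threshold does not show equal levels, and the 95% intervals show about what these data leave possible. They were taken from the standard errors with a normal quantile, so they are somewhat narrower than the quasi-likelihood test itself would give. For fluoxetine, the interval was narrowest for *Lpl*, from -0.30 to 0.28 on the log2 scale, and *Fabp4* had 0.10 to 0.74. *Cfd* had -0.73 to 0.37, *Cidec* -0.42 to 0.72 and *Lep* -1.04 to 0.03. Interaction intervals were wider, from -0.46 to 1.82 for *Cidec* and from -1.05 to 0.11 for *Lpl*.

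Direction of the list as a whole depended on FF3. For fluoxetine, 6 of 10 genes were higher over all dams with a median log2 fold change of 0.08 (0.02 over all genes), and 4 of 10 without FF3 with a median of -0.15 (-0.01 over all genes). For FA, 6 were higher with a median of 0.07, and without FF3 4 were higher with a median of -0.06. Among all genes, 7746 of 14362 were higher for FA (median 0.02), and 6957 of 14247 without FF3 (median -0.01). For the interaction, 7 were higher with a median of 0.20, and without FF3 2 were higher with a median of -0.15. All genes gave 7754 of 14362 (median 0.03), and 6916 of 14247 without FF3 (median -0.01), so they also shifted downward when FF3 was left out. *Plin1*, *Plin4* and *Cidec* were higher with fluoxetine over all dams (0.08, 0.08 and 0.15) and lower without FF3 (-0.19, -0.24 and -0.15). *Lpl* went the other way, from -0.01 to 0.05. On total counts without a scaling factor, 8 of the 10 genes were higher with fluoxetine, as were 12210 of the 14362 genes tested. The median of the 10 genes was 0.57, beside the shift of 0.26 over all genes.

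**Figure D2:**
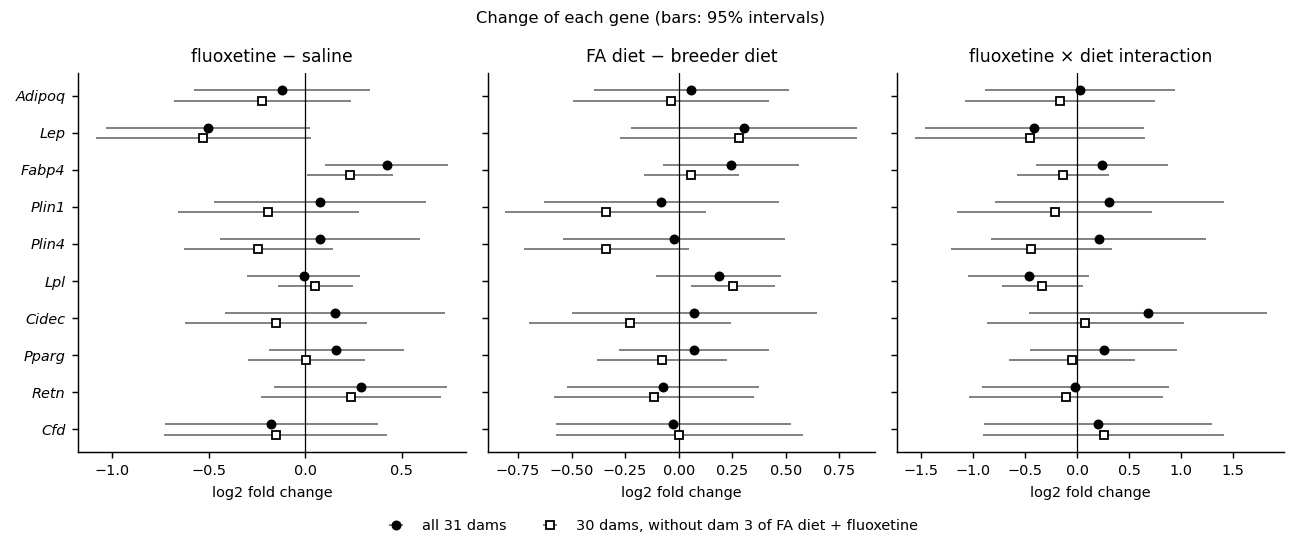
Log2 fold change of each gene for fluoxetine, FA and their interaction, over all 31 dams (filled circles) and without FF3 (open squares), with bars for the 95% intervals. Most bars cross 0, the exceptions being *Fabp4* for fluoxetine with and without FF3 and *Lpl* for FA without FF3, and *Plin1*, *Plin4* and *Cidec* change sign for fluoxetine when FF3 is left out.

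Within each diet the fluoxetine difference was also estimated from the same fit. *Fabp4* was higher by 0.30 (standard error 0.233) on the breeder diet and by 0.54 (standard error 0.226) on the FA diet, and without FF3 by 0.30 (standard error 0.160) and 0.16 (standard error 0.160). *Lep* was at -0.30 (standard error 0.390) on the breeder diet and at -0.71 (standard error 0.374) on the FA diet. *Cidec* was at -0.19 on the breeder diet and 0.49 on the FA diet, and the latter became -0.11 without FF3. None of the 10 genes passed the FDR within a diet by edgeR's test.

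In FF3 the fat cell genes did not stand apart alike. On TMM-scaled CPM it exceeded all other 30 libraries for 5 of the 10 genes, where 21.9% of all tested genes did so. Relative to the median of the other 30, *Cidec* was 4.73 times as high (83.2 against 17.6 CPM), *Plin4* 4.24 times, *Fabp4* 3.72 times, *Plin1* 3.63 times and *Pparg* 2.65 times. *Adipoq* (1.84 times), *Retn* (1.53 times), *Lep* (1.29 times) and *Cfd* (0.705 times) lay inside the range of the other dams. *Lpl* lay below that range, at 0.262 times the median, and 20.5% of all tested genes were likewise below all other 30 libraries. On CPM of total counts, which TMM divides by 3.04 in this library, FF3 exceeded all others for 8 of the 10 genes, where 70.0% of all genes did, with *Fabp4* at 2043 CPM against 108 to 395 CPM. On that scale *Cfd* (312 CPM) and *Lpl* (1395 CPM) were within the range of the other dams.

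Marker genes of other cells moved with FF3 too. All 6 macrophage genes and 8 of the 9 tested fibroblast genes exceeded the other 30 libraries on TMM-scaled CPM, with median ratios of 5.47 and 7.69. The summed fibroblast markers had 981 CPM in FF3, against 96.2 to 211 CPM in breeder diet + saline, 72.2 to 204 CPM with fluoxetine on that diet, 128 to 324 CPM in FA diet + saline and 83.0 to 151 CPM in the other dams of FA diet + fluoxetine. *Dlk1*, a marker of fat cell precursors in that list, had under 20 counts in every library. The summed macrophage markers had 213 CPM in FF3 and 29.5 to 62.6 CPM in the others. The 8 milk protein genes went the opposite way, with a median ratio of 0.0822. Skeletal muscle genes had a sum of 0.664 CPM in FF3 and ranged from 0.828 to 6669 CPM in the other dams, so other dams also had almost none. The part of these cells in the level of the fat cell genes in FF3 was not tested.

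**Figure D3:**
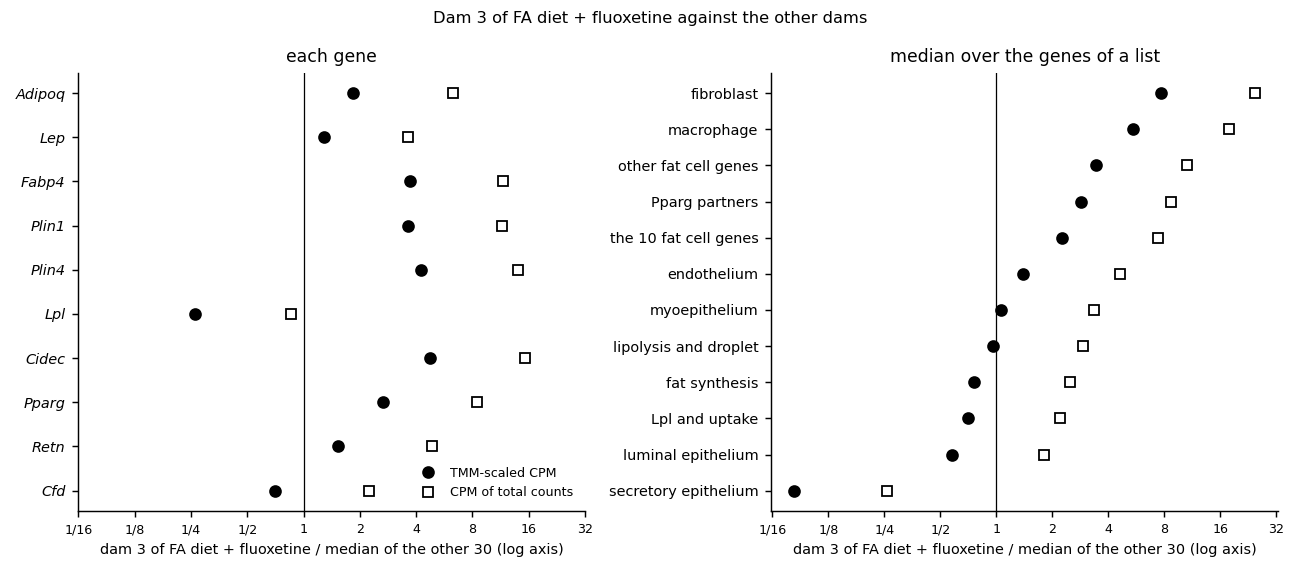
Level in FF3 divided by the median of the other 30 libraries (log axis), for each fat cell gene and as the median over the genes of each marker list, on TMM-scaled CPM (filled) and on CPM of total counts (open). The fibroblast and macrophage lists and most fat cell genes lie to the right of 1, while *Lpl* and the secretory epithelium lie to the left on both scales.

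Between dams, many of the genes covaried. The correlations below are of log2 CPM over libraries that share the same scaling, and they are given as descriptions. Over the 30 libraries other than FF3, 35 of the 45 pairs had a positive Pearson's r, with a median of 0.35 and a range from -0.32 to 0.88. Each pair with a negative r held *Lep* or *Lpl*. The 28 pairs without *Lep* and *Lpl* were therefore all positive by this choice, with a median of 0.50 and a range from 0.26 to 0.88. The closest pairs were *Adipoq* with *Cidec* (r = 0.88, Spearman's rho = 0.90), *Plin1* with *Cidec* (r = 0.85), *Cidec* with *Cfd* (r = 0.82) and *Retn* with *Cfd* (r = 0.82). They remained close on deviations from the group means, with r = 0.89 for *Adipoq* with *Cidec* and 0.83 for *Cidec* with *Cfd*. *Plin4* was the loosest of the 8 genes other than *Lep* and *Lpl*. Its highest r was 0.37, with *Pparg*, below the 0.40 of *Lpl* with *Fabp4*.

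*Lep* stood outside. Its r with the other 9 genes ran from -0.32 with *Fabp4* to 0.03 with *Adipoq*, with a median of -0.18. *Lpl* had a median r of 0.23 with the others without FF3 and -0.29 with it, so the sign rested on that library. With *Fabp4*, *Lpl* had r = 0.40 without FF3 and -0.37 with it. The dams at the ends were the same for many of the genes. FF3 and dam 3 of breeder diet + saline were each among the 5 highest libraries for 7 of the 10 genes, and dam 13 of breeder diet + fluoxetine for 6. Dam 6 of breeder diet + fluoxetine was among the 5 lowest for 7 genes, and dam 5 of that group and dam 10 of FA diet + fluoxetine for 6 each.

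**Figure D4:**
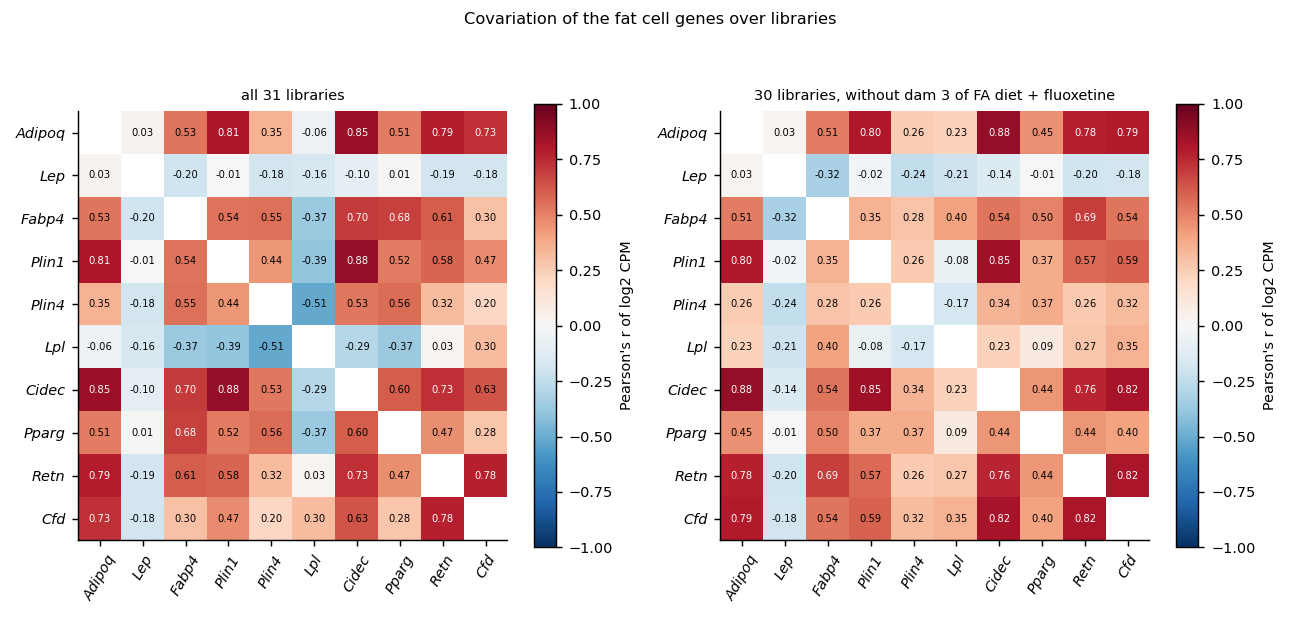
Pearson's r of log2 CPM between the 10 fat cell genes, over all 31 libraries and without FF3. The highest r of *Lep* with another gene is 0.03, with *Adipoq*, in both panels, and *Lpl* has a negative r with 7 of the other 9 genes in the first panel and with 3 in the second.

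**Figure D5:**
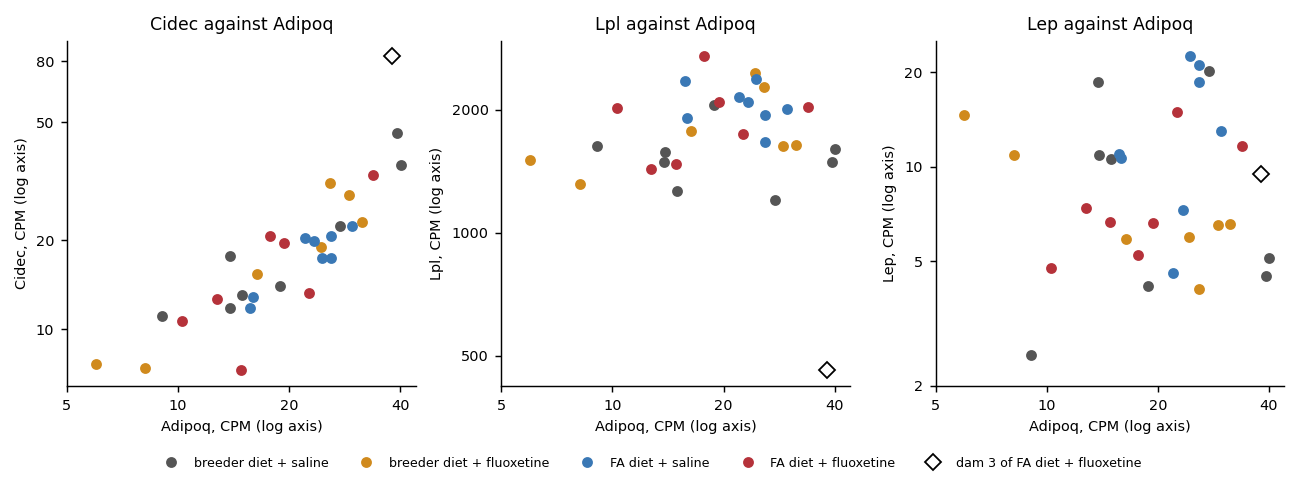
CPM of *Cidec*, *Lpl* and *Lep* against *Adipoq* in each dam (log axes), coloured by group, with a diamond for FF3. *Cidec* follows *Adipoq* across all groups (r = 0.88 without FF3), while *Lpl* (r = 0.23) and *Lep* (r = 0.03) do so little.

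Genes outside the list whose pattern was most like its mean standardized level were looked up among all tested genes. Over the 30 libraries without FF3 these were *Cyp2e1* (r = 0.83), *Cdo1* (0.79), *Hp* (0.76), *H6pd* (0.76), *Gstz1* (0.75), *Igfbp4* (0.74), *Slc7a10* (0.74), *Dgat2* (0.73), *Slc1a5* (0.73) and *Ces1f* (0.72). With FF3 included, *Cyp2e1* (r = 0.82) and *Cdo1* (0.82) again led, and *Prkar2b* (0.77) and *Cebpa* (0.76), a transcription factor of fat cell differentiation, replaced *Igfbp4* and *Ces1f*. The most opposite genes without FF3 were *Sdr42e1* (r = -0.70), *Fnbp1* (-0.68), *Car2* (-0.68), *Mms22l* (-0.67) and *N4bp2os* (-0.65). With FF3, *Bspry* (-0.68) and *Mkx* (-0.64) were among the lowest 5 in place of *Fnbp1* and *N4bp2os*.

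The mean level of 11 other genes high in white fat cells followed that of the list with r = 0.89 without FF3 (0.91 with it). That of 13 fat synthesis genes, which the secretory epithelium also uses, had r = 0.57 without FF3 and 0.26 with it. Macrophage markers had 0.45 without FF3 and 0.56 with it, and fibroblast markers 0.41 and 0.54. Milk protein genes had -0.17 without FF3 and -0.43 with it, skeletal muscle genes -0.07 and -0.19, and total counts 0.20 and 0.11. Of the genes of brown fat, *Ucp1*, the uncoupling protein that defines brown fat cells, had at most 6.72 CPM and a median of 0 CPM over the other 30 dams, and it was at 0 in FF3. *Cox8b* reached 17.3 CPM and *Cox7a1* 11.9 CPM in other dams. Skeletal muscle genes reached a sum of 6669 CPM in these dams, and which cells the RNA of *Cox8b* and *Cox7a1* came from was not tested.

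Related lists were counted in the same way, by edgeR's test over all genes, and none of their genes passed the FDR of 10% in any of the 3 comparisons. Among all genes, 7687 of 14362 were higher with fluoxetine, 6892 of 14247 without FF3, and 12210 of 14362 on total counts without a scaling factor. Of 12 lipid droplet and lipolysis genes, 9 were higher with fluoxetine (median 0.04, and 0.10 without FF3, where 9 were higher as well), and 11 on total counts without a scaling factor. The 3 with the most counts were *Cidea* (median 1641 CPM), *Plin2* (844 CPM), which coats milk fat droplets, and *G0s2* (512 CPM), an inhibitor of lipolysis. On TMM-scaled CPM all 3 were at their lowest in FF3, as *Lpl* and 20.5% of all tested genes were. On CPM of total counts only *Cidea* was (3.96% of all genes), and *Plin2* was 1.19 times the median of the other 30. Of 8 genes for Lpl partners and fatty acid uptake, 5 were higher with fluoxetine with and without FF3, and 6 on total counts. They include *Cd36* (median 413 CPM), a fatty acid transporter, with *Scarb1* (41.4 CPM) and *Fabp5* (36.7 CPM) next in counts.

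Of 10 transcription factors that act with *Pparg*, 6 were higher with fluoxetine over all dams, 3 without FF3 and 9 on total counts. The most abundant were *Srebf1* (144 CPM), *Cebpb* (41.5 CPM) and *Cebpd* (38.9 CPM). All 3 tested receptors of adiponectin and their like, *Adipor1* (43.6 CPM), *Adipor2* (45.8 CPM) and *Cdh13* (6.16 CPM), were lower with fluoxetine, with log2 fold changes from -0.22 to -0.07. On total counts without a scaling factor all 3 were higher, as were 12210 of all 14362 genes. None of the 3 passed the test, and the leptin receptor gene *Lepr* had under 20 counts in every library. Among 11 other fat cell genes, 6 were higher with fluoxetine over all dams, 3 without FF3 and 8 on total counts. The most abundant were *Car3* (171 CPM), *Lgals12* (35.5 CPM) and *Cyp2e1* (18.4 CPM). Of 6 brown fat genes only *Cox7a1* (2.40 CPM) and *Cox8b* (1.66 CPM) could be tested, and *Dio2* had a median of 0.244 CPM.

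In the fat synthesis list, whose most abundant genes were *Fasn* (2719 CPM), *Scd1* (1812 CPM) and *Thrsp* (859.9 CPM), 5 of 13 genes were higher with fluoxetine, and 4 without FF3. On total counts without a scaling factor, 10 genes of the list were higher, as were 12210 of all 14362 genes. From that list, 3 enzymes of triacylglycerol assembly had an unadjusted p of 0.01 or below for fluoxetine, as did 2.43% of all genes tested. Without FF3 this was so only for *Dgat1* (2.37% of all genes), and *Dgat2* and *Agpat2* no longer reached it. *Dgat1*, which performs the last step, had 42.4 ± 6.22 CPM (SD, n = 16) with saline and 53.8 ± 10.1 CPM (SD, n = 15) with fluoxetine, a log2 difference of 0.35 with a standard error of 0.0948 (adjusted p = 0.277 by edgeR, and 0.35 with adjusted p = 0.270 without FF3). *Dgat2* was at 0.79 (standard error 0.276, adjusted p = 0.390) and at 0.58 without FF3, and *Agpat2* at 0.49 (standard error 0.173, adjusted p = 0.391) and at 0.39 without FF3. None of the 3 passed the FDR. *Nnat*, a membrane protein gene expressed in fat cells, was low (0 to 8.98 CPM) and had a log2 difference of 1.58 for FA (standard error 0.463, adjusted p = 0.933). Without FF3 it was at 1.10 for FA and at -1.42 for fluoxetine (standard error 0.405, adjusted p = 0.334).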

How the data were processed

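RNA of mammary glands from 31 dams was sequenced with paired ends, 1 library per dam. Per the labels and the paper's methods, the authors trimmed reads with Trim Galore 0.4.4, checked them with FastQC 0.11.7, aligned them with HISAT2 and counted reads per gene with htseq-count in its intersection-nonempty mode. The annotation release and the strand option are not given in the sources used here. The deposited values are raw counts per gene, 1 file per library, with no normalization by the authors. Groups follow the labels. No pair of libraries in a group had counts as close as sampling noise allows (lowest chi-square per degree of freedom 14.4 over 105 pairs).

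Genes with low counts were removed with filterByExpr by group, which left 14362 of 55379. The counts were fitted with edgeR 4.0.16 (limma 3.58.1, R 4.3.3; TMM, robust quasi-likelihood test, 4 groups in 1 fit), with contrasts for fluoxetine, FA and their interaction and Benjamini-Hochberg adjustment over all genes at an FDR of 10%. Each standard error is the size of the log2 fold change divided by the root of F. The fit was checked on simulated counts. The alternatives were the likelihood ratio test, DESeq2 1.42.0, no filter, RLE normalization, removal of the 20 most abundant genes, no robust estimation and limma voom with quality weights. Further ones were a replicate block, each dam left out and, chosen after seeing the data, total counts without scaling factors. The fluoxetine contrast within each diet came from the main fit of all 31 libraries. Fold changes refer to the fitted model, and the common dispersion was 0.169. Correlations and motif counts are descriptions without a test.

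The 10 genes, the other lists and the tests were chosen with earlier results of these data known. Named besides the 10 genes are the 3 genes with the most counts of each related list, those of a list with an unadjusted p of 0.01 or below, the 10 genes most like and the 5 least like the mean standardized log2 CPM of the list, and genes of marker lists.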

Additional observations from a re-analysis of the deposited data

Results flagged for a closer look

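In 4 of 40 sets of values (10 genes in 4 groups), a single dam lay far from the rest of its group by Dixon's test on log2 CPM. The test was made at the 95% level, which flags about 1 in 20 such sets by chance. On CPM without the log, the dams flagged can differ. Dam 3 of FA diet + fluoxetine accounted for 3 of the 4. It had the highest *Fabp4* level of its group with 675 CPM, the highest *Plin4* level with 44.8 CPM and the lowest *Lpl* level with 461 CPM. Dam 11 of FA diet + saline had the lowest *Cfd* level of its group with 83.1 CPM.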

How the results depend on the processing

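Under every alternative run, 0 of the 10 fat cell genes passed the FDR of 10% for fluoxetine, FA or the interaction, and the lowest adjusted p was 0.160, on total counts without scaling factors, an alternative chosen after seeing the data. Of the 30 log2 fold changes (10 genes, 3 comparisons), 7 kept their direction throughout, and the likelihood ratio test, DESeq2, no filter, RLE normalization, removal of the 20 most abundant genes and no robust estimation reversed 0. The cause of the reversals below was not tested. With limma voom quality weights, which gave FF3 a weight of 0.0687, 13 reversed: for fluoxetine *Plin1* (-0.19), *Plin4* (-0.16), *Cidec* (-0.23) and *Pparg* (-0.036), for FA *Cidec* (-0.21) and *Pparg* (-0.076), and for the interaction *Adipoq* (-0.32), *Fabp4* (-0.18), *Plin1* (-0.40), *Plin4* (-0.31), *Cidec* (-0.20), *Pparg* (-0.011) and *Cfd* (-0.085). On total counts, which shift the median of all genes to 0.26, 0.03 and 0.47 in the 3 comparisons, 7 reversed: *Adipoq* (0.24) and *Lpl* (0.13) for fluoxetine, *Plin1* (0.15), *Plin4* (0.29) and *Retn* (0.019) for FA, and *Lep* (0.094) and *Retn* (0.49) for the interaction. With the replicate block, 8 reversed: *Plin1* (-0.43), *Cidec* (-0.33) and *Retn* (-0.16) for fluoxetine, *Plin1* (0.27), *Retn* (0.22) and *Cfd* (0.34) for FA, and *Plin4* (-0.19) and *Retn* (0.54) for the interaction, while 0 calls changed. The 28 same-numbered pairs had correlations of their deviations from -0.22 to 0.43, with a median of 0.079 and 12 of them over 0.1. Pairs with other numbers had a median of -0.0070, and 4 of 27 libraries correlated best with their own number. These values cannot settle whether the numbers pair the dams. Within the breeder diet, a contrast of the main fit and not another processing, *Plin1* (-0.080), *Plin4* (-0.024), *Lpl* (0.23) and *Cidec* (-0.19) had the opposite direction for fluoxetine.

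Leaving out FF3 reversed 13 of the 30 values, and leaving out any other dam at most 5. When dams were left out 1 at a time, the values that reversed ranged for fluoxetine from -0.19 to 0.20 (*Plin1*), -0.24 to 0.15 (*Plin4*), -0.066 to 0.052 (*Lpl*) and -0.15 to 0.28 (*Cidec*). For FA they ranged from -0.036 to 0.15 (*Adipoq*), -0.34 to 0.036 (*Plin1*), -0.34 to 0.070 (*Plin4*), -0.23 to 0.20 (*Cidec*), -0.077 to 0.13 (*Pparg*), -0.20 to 0.014 (*Retn*) and -0.17 to 0.078 (*Cfd*). For the interaction they ranged from -0.16 to 0.17 (*Adipoq*), -0.13 to 0.35 (*Fabp4*), -0.21 to 0.51 (*Plin1*), -0.44 to 0.39 (*Plin4*), -0.047 to 0.37 (*Pparg*), -0.27 to 0.16 (*Retn*) and -0.10 to 0.42 (*Cfd*).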
